A study of Mus musculus with 6 samples.

Results

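Linker histones and high mobility group (HMG) proteins are the most abundant architectural proteins of chromatin after the core histones. In double-negative thymocytes of RAG1/Ezh2 double mutant mice, the linker histone gene H1f10 lay higher than in those of RAG1-deficient mice. The linker histone gene H1f2 lay lower on average, although its arrays overlapped between the genotypes. The HMG genes Hmgb2, Hmgb3 and Hmgn1 lay slightly higher on average, with overlap for Hmgb2 and Hmgn1. The genes described were 9 linker histone and HMG genes (H1f10, H1f0, H1f2, Hmga1, Hmgb1, Hmgb2, Hmgb3, Hmgn1 and Hmgn2), each represented by every probe set that the platform's probe table assigns to that gene alone. This left 5 genes with 1 probe set each (H1f10, H1f2, Hmgb2, Hmgb3 and Hmgn1) of 8251 genes named in this way. Hmgb1 and Hmgn2 are read only by a probe set assigned to several genes and got no value, and H1f0 and Hmga1 have no entry in that table. The group was chosen by measured values of the comparison described here, in which H1f10 stood out. Levels and differences of these 5 genes are therefore given as a description, without a test.

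The study measured total RNA of double-negative thymocytes, T cell precursors with neither CD4 nor CD8, on 6 single-colour Affymetrix expression arrays. RAG1-deficient mice provided 3 arrays and RAG1/Ezh2 double mutants the other 3, so by the labels the cells of both groups were mutant for RAG1, part of the recombinase of antigen receptor genes, and differed in Ezh2, the methyltransferase of Polycomb repressive complex 2. The labels give neither the alleles, nor a Cre driver, strain, sex or age, nor whether arrays of a group came from separate animals, so the spread between arrays may be technical. The titles fall into 3 styles, named here by their wording as numbered, Rag and Thy, with 1 array of each group in each style, and the arrays of a style are set side by side as a pair. The titles of the Rag pair name T cells and not the double-negative stage. The titles of the other 2 RAG1-deficient arrays end in WT, which the labels do not explain.

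A linker histone binds where DNA enters and leaves the nucleosome and favours compaction. The main somatic linker histone genes, among them H1f2, lie in the histone cluster and belong to the class made mostly in S phase, whereas H1f10 and H1f0 lie apart and are made throughout the cell cycle. HMGB proteins bend DNA through their HMG boxes, and Hmgb1 and Hmgb2 are known to assist the RAG recombinase in cutting. HMGN proteins bind the nucleosome core and counteract linker histones, and HMGA proteins bind AT-rich DNA through AT-hooks.

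The 250 bases before the start sites of H1f10, H1f2 and Hmgb3 are shown. Among the described genes, H1f10 and Hmgb3 were those whose arrays did not overlap between the groups, and H1f2 was the one that lay lower. The sequences were taken from RefSeq on assembly GRCm38.p6, all 9 genes having an entry, and are printed 5′ to 3′ on the strand of the gene. H1f10 lies on the minus strand (chr6:87981483-87981732), and capitals mark its CG dinucleotides. H1f2 (chr13:23738557-23738806) and Hmgb3 (chrX:71555667-71555916) lie on the plus strand, and capitals mark AAACACA, the motif of linker histone genes called the H1 box, and CCAAT, each searched on both strands.
H1f10: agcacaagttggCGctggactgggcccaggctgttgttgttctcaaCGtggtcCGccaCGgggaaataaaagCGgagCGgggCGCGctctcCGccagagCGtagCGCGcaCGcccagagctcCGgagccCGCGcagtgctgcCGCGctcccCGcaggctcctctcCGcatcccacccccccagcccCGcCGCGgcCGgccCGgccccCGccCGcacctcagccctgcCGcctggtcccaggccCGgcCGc
H1f2: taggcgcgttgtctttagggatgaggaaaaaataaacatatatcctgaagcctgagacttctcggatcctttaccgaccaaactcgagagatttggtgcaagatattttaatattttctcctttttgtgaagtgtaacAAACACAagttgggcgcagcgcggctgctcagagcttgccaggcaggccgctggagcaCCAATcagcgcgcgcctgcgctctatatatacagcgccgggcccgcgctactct
Hmgb3: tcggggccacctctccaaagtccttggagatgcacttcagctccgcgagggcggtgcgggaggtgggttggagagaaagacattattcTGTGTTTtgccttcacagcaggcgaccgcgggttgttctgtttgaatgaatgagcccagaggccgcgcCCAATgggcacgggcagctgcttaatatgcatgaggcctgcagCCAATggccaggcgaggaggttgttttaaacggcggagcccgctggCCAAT

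The promoters of the linker histone genes differed in these letters. The window of H1f10 held 30 CG dinucleotides, a number reached by 5.94% of the 32851 windows in the table, and was 75.2% G or C, but it held neither AAACACA nor CCAAT nor TATAAA. The window of H1f2 held 17 CG and was 50.4% G or C. Its AAACACA began at position -112 and its CCAAT at -54, counting the base before the start as -1. AAACACA was found in 6.25% of all windows, CCAAT in 33.9% and TATAAA in 12.4%. Among the 5 somatic genes H1f1 to H1f5 of the histone cluster, 4 windows held AAACACA, 5 held CCAAT and 4 held TATAAA. H1f0, like H1f10, held none of the 3 motifs, with 24 CG. Of the windows of Hmga1, Hmgb1, Hmgb2, Hmgb3, Hmgn1 and Hmgn2, that of Hmgb3 held AAACACA, on the other strand and starting at -162, while CCAAT appeared in Hmgb2, Hmgb3, Hmgn1 and at the first of the Hmgb1 start sites. Such matches describe letters and are not evidence that a factor binds there.

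**Figure D1:**
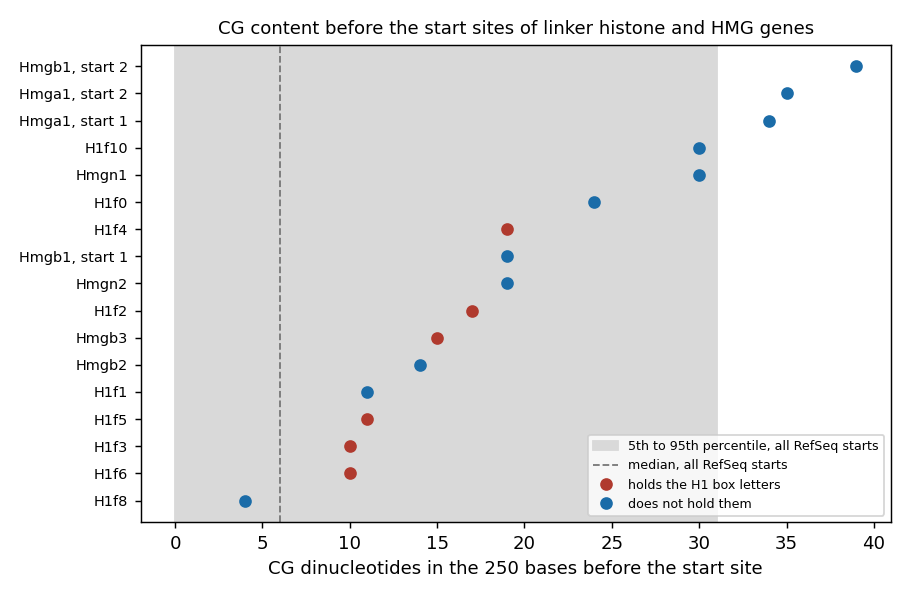
The number of CG dinucleotides in the 250 bases before each start site is plotted on the x axis for each linker histone and HMG gene, with red points for windows that hold the H1 box letters and a grey band for the 5th to 95th percentile of all windows (0 to 31, median 6, dashed). H1f10 lies at 30, H1f2 at 17 and H1f1, H1f3 and H1f5 at 10 or 11.

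Before the genes themselves, the arrays were checked against their labels. Ezh2 averaged 1622 ± 178 (SD, n = 3) in the control intensities and 555 ± 231 (SD, n = 3) after its mutation. Of 15 double-negative thymocyte markers 14 were on the array, and their summed intensity lay between 85256 and 124825 in the RAG1-deficient and between 76288 and 106547 in the double mutant arrays. Of 13 tested, 12 lay below 0, among them Ptcra at -0.66 on the log2 scale, without overlap between the groups. The brighter probe set of Rag1 gave 6933, 7241 and 7264 on the numbered, Rag and Thy arrays of the RAG1-deficient group and 5394, 5226 and 5171 on those of the double mutant (log2 difference -0.44). Transcript was thus read on all 6 arrays, and since the labels do not say which part of Rag1 was altered, this level does not check the RAG1 genotype. The numbered RAG1-deficient array stood apart, with a summed intensity of the double-positive stage markers Cd4, Cd8a, Cd8b1 and Cd5 of 12160 against 227 to 593 on the other 5 arrays, mostly from Cd8a and Cd8b1, and it was the highest array for Cd4 as well. Erythroid markers summed to 1265 and 2006 on the Thy arrays and to at least 22194 on the other 4. Markers of NK and innate lymphoid cells summed to 2857 to 4478 in the RAG1-deficient and 8012 to 10324 in the double mutant arrays, mostly through the granzyme gene Gzma, which gave 1244 to 2796 and 4982 to 8096. Of 12 listed, 9 were on the array and 7 tested, 5 above and 2 below 0, and Gzma and Gzmb were the 2 called higher in the paired limma fit. The pairs differed, since the median log2 difference of the list was 0.70 (numbered pair), -0.25 (Rag pair) and 1.12 (Thy pair). Antigen-presenting cell markers lay below 0 in 10 of 11 (median -0.36), with sums of 6954 and 6592 on the Thy arrays and at least 11516 on the other 4, and B lineage markers in 6 of 6 tested (median -0.28). Myeloid markers had a median of -0.09, but their summed intensity was 12862 on the Rag RAG1-deficient array against 3033 to 5428 on the other 5 arrays. Stromal markers had a median of -0.08, and 1 of them, Pdgfrb, was called higher in the paired limma fit. Some markers of these lists were dim on every array, and the part of these cell types in the levels described here was not tested. Without the numbered RAG1-deficient array the log2 difference was 2.08 for H1f10, -0.94 for H1f2, 0.26 for Hmgb2, 0.69 for Hmgb3 and 0.31 for Hmgn1. Without the Thy pair these were 2.22, -1.23, 0.29, 0.40 and 0.21, and without the Rag pair 1.71, -0.96, 0.21, 0.53 and 0.31. In bulk RNA a change in the share of cells and a change in RNA per cell cannot be told apart.

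H1f10 encodes the linker histone H1.10, also called H1x. Its intensity was 194, 121 and 214 on the numbered, Rag and Thy arrays of the RAG1-deficient group and 771, 833 and 673 on those of the double mutant. All 3 double mutant arrays lay above all 3 RAG1-deficient arrays, and the lowest RAG1-deficient value and the highest double mutant value both came from the Rag pair. The group means were 176 ± 49.3 (SD, n = 3) and 759 ± 80.7 (SD, n = 3), a ratio of 4.31. The ratio within a pair was 3.96 for the numbered, 6.91 for the Rag and 3.15 for the Thy arrays. On the scale of log2(intensity + 23), where the added 23 damps the noise of dim probe sets, the double mutant mean minus the RAG1-deficient mean was 2.0 ± 0.26 (SE of the unpaired fit). Of all 7642 tested probe sets, 15 had a higher difference. Every ± SE in the text is of the unpaired fit, also where an adjusted p of the paired fit stands beside it.

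H1f2 encodes H1.2, a main somatic linker histone. Its intensity was 687, 140 and 1074 on the numbered, Rag and Thy arrays of the RAG1-deficient group and 379, 29.5 and 488 on those of the double mutant. The groups overlapped, yet each double mutant array lay below the RAG1-deficient array of its own title style. The arrays of the Rag style were the lowest of both groups, with a mean of 84.9 against 533 for the numbered and 781 for the Thy style. The double mutant had 0.551 of the RAG1-deficient intensity in the numbered pair, 0.210 in the Rag pair and 0.454 in the Thy pair. The log2 difference was -1.19, with a SE of 0.94 without pairing and 0.20 when title style was a block, which removes the differences between styles. Of the tested probe sets, 8 had a lower difference. The value leans on single arrays, since it was -0.15 without the Rag array of the double mutant and -2.00 without that of the RAG1-deficient group, and each of these leaves the low Rag style in 1 group. With the whole Rag pair left out it was -0.96. Linker histone genes of the cluster resemble each other in sequence, and how far this probe set also reads relatives was not tested.

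**Figure D2:**
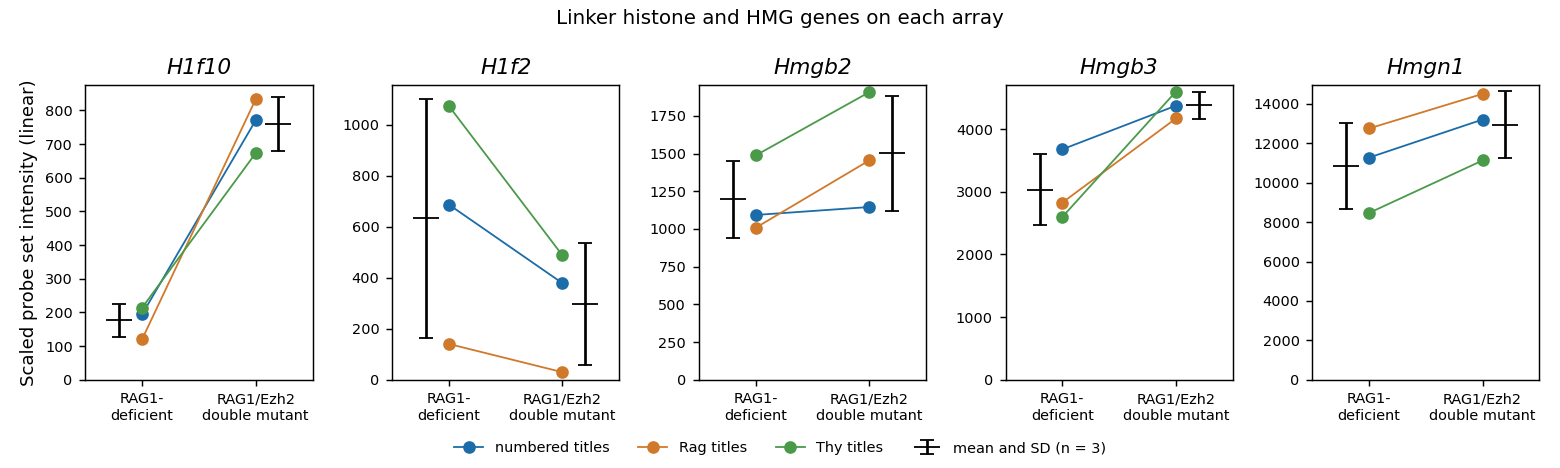
Scaled intensity (linear y axis from 0, a different range in each panel) of H1f10, H1f2, Hmgb2, Hmgb3 and Hmgn1 is plotted for each array, with lines joining the arrays of a title style and black bars for the mean and SD of 3 arrays. H1f10 goes from 121 to 214 up to 673 to 833, while H1f2 goes down in each pair and is lowest on the Rag arrays.

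Among the described HMG genes, Hmgb3 was the one whose groups did not overlap. Hmgb3 encodes an X-linked HMG box protein known from blood progenitors. Its intensity was 3678, 2827 and 2597 on the numbered, Rag and Thy arrays of the RAG1-deficient group and 4374, 4170 and 4599 on those of the double mutant. The double mutant arrays lay close together, and the RAG1-deficient numbered array came nearest to them. The means were 3034 ± 569 (SD, n = 3) and 4381 ± 214 (SD, n = 3), a ratio of 1.44. The log2 difference was 0.54 ± 0.22 (SE), and the pairs gave 0.25 (numbered), 0.56 (Rag) and 0.82 (Thy).

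Hmgb2 encodes an HMG box protein known to be abundant in dividing cells. Its probe set gave 1093, 1008 and 1488 on the numbered, Rag and Thy arrays of the RAG1-deficient group and 1146, 1454 and 1907 on those of the double mutant. The groups overlapped, the Thy array was the highest of each group, and the numbered pair hardly differed, at a ratio of 1.05 against 1.44 (Rag) and 1.28 (Thy). The log2 difference was 0.31 ± 0.26 (SE).

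Hmgn1 encodes a nucleosome-binding HMG protein. It gave 11277, 12757 and 8466 on the numbered, Rag and Thy arrays of the RAG1-deficient group and 13211, 14513 and 11133 on those of the double mutant. Here the Thy array was the lowest of each group, the groups overlapped, and each double mutant array exceeded its partner, by a ratio of 1.17 (numbered), 1.14 (Rag) and 1.31 (Thy). The log2 difference was 0.27 ± 0.24 (SE), smaller than the spread between title styles, whose means ranged over 0.49 on the log2 scale.

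**Figure D3:**
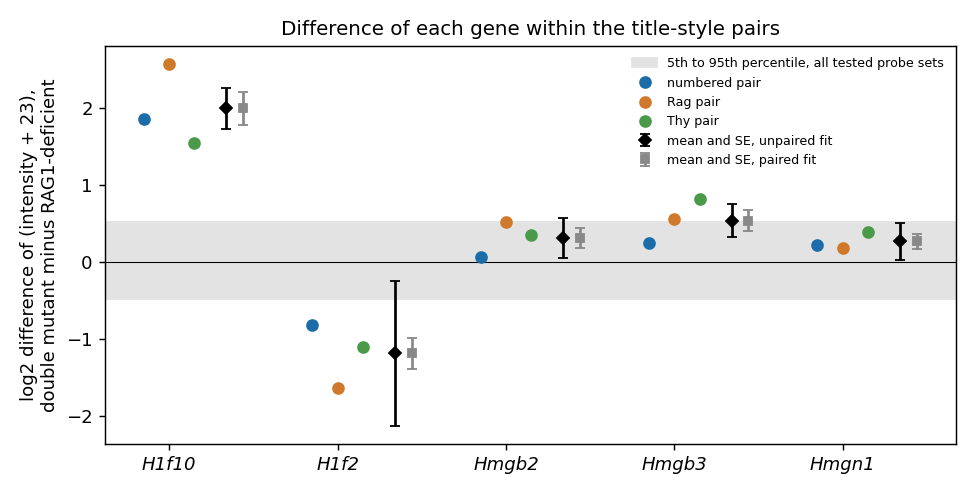
The log2 difference of the double mutant minus the RAG1-deficient array is plotted for each title-style pair, beside the mean with its SE in the unpaired and the paired fit and a grey band for the 5th to 95th percentile of all tested probe sets (-0.48 to 0.53). The pairs of H1f10 lie between 1.55 and 2.58 and those of H1f2 between -1.64 and -0.82. The band is of differences between means of 3 arrays, so only the mean of each gene is set against it. By their means H1f10, H1f2 and, narrowly, Hmgb3 lie outside the band, and Hmgb2 and Hmgn1 lie inside it.

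The 5 probe sets are counted here against all 7642 tested, which were those above an intensity of 86.5 on at least 3 arrays, and all 5 passed this filter. Since the genes were chosen on this comparison, nothing is read from these counts. In the paired limma fit, with title style as a block and an adjusted p under 0.05, 1 of the 5 was called higher (H1f10; 0.563% of all tested probe sets were called higher) and 0 lower (0.105% of all). In the unpaired limma fit 0 of the 5 were called in either direction, where 0.0393% of all were called higher and 0% lower. Groups did not overlap for 2 of the 5 that lay higher (4.21% of all) and for 0 that lay lower (2.92% of all). In all 3 pairs 4 of the 5 were higher (18.8% of all) and 1 was lower (17.1% of all). The median log2 difference of the 5 was 0.31, against -0.002 over all tested probe sets.

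The remaining linker histone and HMG genes on the array were mostly dim. Each SE below is of the unpaired fit, and the adjusted p beside it is of the paired fit. Of 9 with a single-gene probe set, 7 did not pass the filter. The linker histone genes H1f3 and H1f4 gave at most 13 and 5.1 on any array, and H1f5 gave at most 174. How well these arrays read the RNA of histone genes of the cluster was not tested. A dim value is therefore not read as a low RNA level. The germline linker histone genes H1f6 and H1f8, the AT-hook gene Hmga2 and the testis gene Hmgb4 stayed at or below 89.6. H1f1, a linker histone gene of the cluster, passed the filter narrowly. It gave 95.1, 82.2 and 120 on the numbered, Rag and Thy arrays of the RAG1-deficient group and 8.9, 10.4 and 130 on those of the double mutant, so it was low on the numbered and Rag double mutant arrays only. Its log2 difference was -1.15 ± 0.68 (SE; adjusted p = 0.351 in the paired limma fit). Hmgn5, a nucleosome-binding HMG protein gene on the X chromosome, averaged 1460 ± 498 in the RAG1-deficient and 1436 ± 475 in the double mutant arrays (SD, n = 3 each), which differed on the log2 scale by -0.02 ± 0.32 (SE; adjusted p = 0.958 in the paired limma fit).

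Other proteins with an HMG box, core histones, histone chaperones and structural chromatin proteins were compared through lists chosen with earlier results known, with the brightest tested probe set for each gene. No gene of these 4 lists passed in the unpaired or the paired limma fit over all probe sets. At an unadjusted p under 0.05, the paired limma fit gave 1 higher and 1 lower of 10 HMG box genes, 1 and 1 of 8 core histone genes, 5 and 1 of 19 chaperone genes and 7 and 0 of 20 structural genes. Over all 7642 tested probe sets the paired fit gave 591 higher and 413 lower. The unpaired fit gave 0 and 0, 0 and 1, 2 and 1, and 0 and 0, with 175 higher and 69 lower over all tested probe sets. Their median log2 differences were 0.07, 0.08, 0.13 and 0.16. The HMG box genes with the smallest p in the unpaired fit were Wdhd1, a replication factor, at 0.43 ± 0.28 (SE), and Tox4 at -0.21 ± 0.20 (SE), and 2 further tested probe sets of Tox4 gave -0.21 and -0.15, while a dim one that was not tested gave 0.05.

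Among the core histones, H3c14, a replication-dependent H3 gene, gave 487, 407 and 408 on the RAG1-deficient and 293, 277 and 114 on the double mutant arrays of the numbered, Rag and Thy styles. How far its probe set also reads other H3 genes was not tested. The groups did not overlap, and the log2 difference was -0.95 ± 0.35 (SE; adjusted p = 0.171 in the paired limma fit). H2ax, the variant phosphorylated at DNA breaks, went the other way, with means of 4168 ± 529 and 5451 ± 676 (SD, n = 3 each) and a shift on the log2 scale of 0.39 ± 0.21 (SE; adjusted p = 0.305 in the paired limma fit). Among the chaperones, Tspyl4, of the nucleosome assembly protein family, gave 417, 666 and 642 against 209, 342 and 375, lower in each pair. Its log2 difference was -0.86 ± 0.30 (SE of the unpaired fit). In the paired limma fit its SE was 0.15 and its adjusted p 0.0605. Nasp, a chaperone of H3 and H4 that also binds linker histones, gave 564, 409 and 264 against 668, 694 and 603, with a log2 difference of 0.70 ± 0.29 (SE; adjusted p = 0.197 in the paired limma fit). Of the structural genes, the topoisomerase gene Top2a had 0.47 ± 0.23 (SE) and the heterochromatin protein gene Cbx1 0.72 ± 0.35 (SE), and Cbx1 was lower in the numbered pair (-0.15), while a dim probe set of Cbx1 that was not tested gave -0.21.

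**Figure D4:**
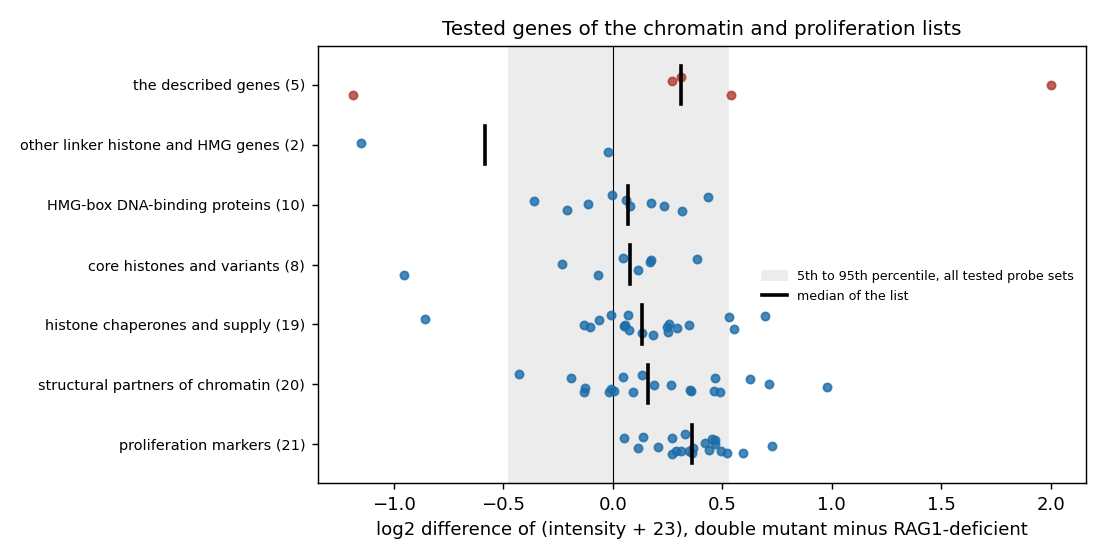
Each point is the log2 difference (x axis) of a tested gene, in rows for the 5 described genes and 6 lists with the number tested in brackets, with a black bar at the median and a grey band for the 5th to 95th percentile of all tested probe sets. H1f10 at 2.0 lies outside the range of the lists, H1f2 at -1.19 lies next to the list gene H1f1 at -1.15, and all 21 proliferation genes lie above 0.

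Proliferation genes moved in the same direction as the HMG genes, and their levels are given beside them. Of 24 listed, 22 were on the array and 21 tested, and all 21 lay above 0, with a median log2 difference of 0.36. The pairs had medians of 0.15 (numbered), 0.32 (Rag) and 0.67 (Thy). Hmgb3 had the same order, but Hmgb2 (0.07, 0.52 and 0.35) and Hmgn1 (0.23, 0.19 and 0.39) did not. H1f2, of the class made mostly in S phase, lay lower in each pair. The summed intensity of the proliferation genes lay between 49755 and 55783 in the RAG1-deficient and between 60192 and 71224 in the double mutant arrays, without overlap. No single gene passed over all probe sets in the unpaired or the paired limma fit, where 1 and 14 had an unadjusted p under 0.05, all higher, against 175 and 591 higher of 7642 over all tested probe sets. The lowest unpaired p belonged to Mcm3, a subunit of the replicative helicase, at 0.52 ± 0.21 (SE; adjusted p = 0.167 in the paired limma fit), with 0.45 for another probe set of the gene, and next came Top2a. The part of proliferation in the levels of the HMG genes and of H1f2 was not tested.

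Some other genes followed the described ones closely over the 6 arrays. Likeness was measured as the root mean square difference of the log2 values after each probe set was centred on its own mean, so 0 would be an identical pattern. Nearest to H1f10 was Epop, which encodes a protein that binds Polycomb repressive complex 2 and Elongin, at 0.18, where the median over all candidate probe sets was 1.08. Epop gave 82.4, 30.2 and 96.4 on the numbered, Rag and Thy arrays of the RAG1-deficient group and 300.1, 306 and 317 on those of the double mutant, so it shared with H1f10 the low value of the RAG1-deficient Rag array. Next came Fkbp11 at 0.31, a peptidyl-prolyl isomerase gene, and Cenpv at 0.31, a centromere protein gene. Nearest to H1f2 were the calcium pump gene Atp2a3 at 0.46, the ubiquitin ligase gene Cbl at 0.47 and the glucocorticoid receptor gene Nr3c1 at 0.50, against a median of 1.44, and all 3 were lowest on the Rag arrays. Nearest to Hmgb2 were Slbp, which encodes the protein that binds the stem-loop of replication-dependent histone mRNAs, at 0.056, C1d at 0.069 and Cyb5r4 at 0.074, against a median of 0.44. The arrays of a style share whatever sets the styles apart, so these likenesses describe these 6 arrays only.

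The genes next to H1f10 differed little between the groups. The order of genes was taken from the RefSeq table, and the 3 nearest protein-coding genes with a single-gene probe set on each side, chosen by position alone, were Hmces, Copg1 and Cnbp before it and Rab7, Rpn1 and Gata2 after it. Their 10 tested probe sets had log2 differences between -0.20 and 0.22, and their groups overlapped in all 10. The GATA factor gene Gata2 gave 226, 89.1 and 174 on the RAG1-deficient and 197, 114 and 247 on the double mutant arrays of the numbered, Rag and Thy styles, a log2 difference of 0.19 ± 0.40 (SE; adjusted p = 0.772 in the paired limma fit). The smallest adjusted p among these probe sets was 0.597 in the paired limma fit and 1 in the unpaired limma fit.

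**Figure D5:**
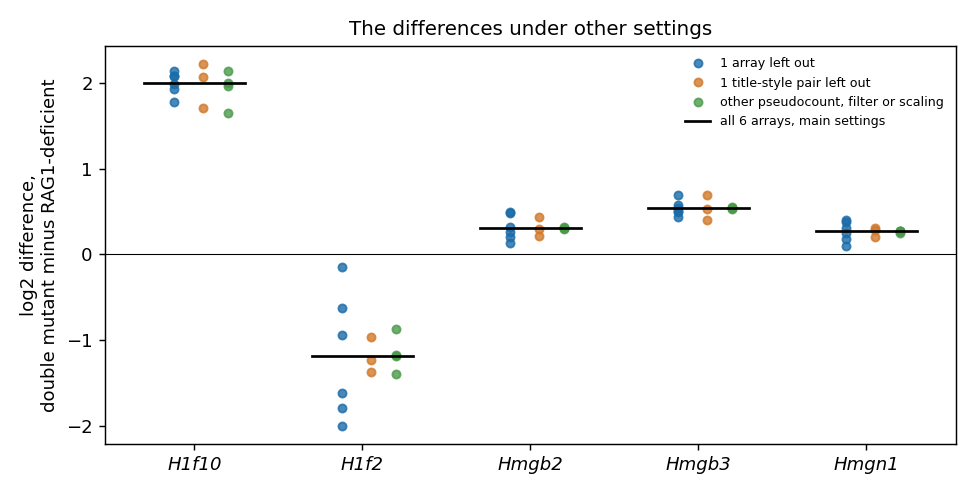
The log2 difference of each gene (y axis) is plotted with 1 array left out, with 1 title-style pair left out and with another pseudocount, filter or scaling, around a black bar for all 6 arrays. H1f10 stays between 1.65 and 2.22, while H1f2 ranges from -2.00 to -0.15 when single arrays are left out.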

How the data were processed

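The deposited table holds 1 linear intensity per probe set and array. The authors' software is not given in the sources used here. By the deposited numbers, all 6 arrays had been scaled to a common 2%-trimmed mean between 500.3 and 500.4, which hides a change shared by most transcripts, and the lowest intensity was 0.1. After 66 control probe sets were left out, 12422 remained, of which 10833 name a single gene. Symbols were looked up in RefSeq through the Entrez number (10817 matched). Only these named genes are discussed. The scale was log2(intensity + 23), the rounded 20th percentile, which understates changes of dim probe sets. Probe sets above 86.5, the 40th percentile, on at least 3 arrays were fitted with limma 3.58.1 in R 4.3.3 (lmFit, eBayes with trend), two-sided, with Benjamini-Hochberg adjustment over 7642 probe sets and a threshold of 0.05, without a block (unpaired) and with title style as a block (paired). The fit was tested on simulated data. Deviations from the group means correlated at 0.57, 0.74 and 0.60 within the numbered, Rag and Thy styles, above the limit of 0.1 set for pairing. This pairing comes from title wording and the data. Levels of different probe sets are not compared. The genes and lists were chosen with earlier results of these data known. Named were every described gene, from each chromatin list and the proliferation list the genes passing in either fit or else the 2 with the smallest unpaired p, the 3 probe sets most like H1f10, H1f2 and Hmgb2, Ezh2 and the markers Rag1, Ptcra, Cd4 and Cd8a. Gzma, Gzmb, Pdgfrb and Cd8b1 were chosen after their values were seen, and the neighbours of H1f10 by position. The number of arrays limits the precision. Alternatives were pseudocounts of 1 and 100, no filter, quantile scaling, no trend, and leaving out arrays or pairs. Plots used matplotlib 3.10.9 under Python 3.11.15.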

Additional observations from a re-analysis of the deposited data

How the results depend on the processing

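The direction of H1f10, H1f2, Hmgb2, Hmgb3 and Hmgn1 was the same in all 14 alternatives run for each. The title-style block and leaving out the filter cannot move a gene's log2 difference, so these alternatives could not change its direction. All alternatives reuse the arrays on which the genes were chosen. In the order named, the log2 differences of these genes lay between 1.65 and 2.22, -2.00 and -0.15, 0.13 and 0.49, 0.40 and 0.69, and 0.10 and 0.40. In the paired fit H1f10 was called in 5 of 9 settings (the main one included). It was not called without the filter, without the trend, or without the numbered or the Thy pair. H1f2 was called in 2 settings, with a pseudocount of 100 and without the Rag pair. Since both genes were chosen on this comparison, nothing is read from these calls. Over all probe sets the unpaired fit made 3 calls, 5 with quantile scaling, 51 with the title-style block and 0 to 6 with 1 array left out. The paired fit made 51, against 30 with a pseudocount of 1, 5 without the filter, 17 with quantile scaling, 9 without the trend, and 3 to 191 with 1 pair left out. The causes were not tested, although fewer arrays were fitted where arrays were left out. Hmgn5 changed sign with single arrays left out (-0.27 to 0.24). Ezh2 passed with the block (adjusted p = 0.0261 in limma) and not without it (0.332), and so did Gzma, Gzmb, Pdgfrb, Epop, Fkbp11 and Cenpv. Epop, Fkbp11 and Cenpv were picked for a pattern like that of H1f10, so nothing is read from their calls. The block changed no call among the named genes of the chromatin and proliferation lists.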
